A study of Rattus norvegicus with 6 samples.

Results

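Endothelial cells line blood and lymphatic vessels, and 38 genes known from these cells were followed here in cultures of rat heart muscle cells. The genes were taken by symbol, and 34 of the 38 were among the 17089 genes of the deposited table; Ptprb, Ecscr, Mmrn2 and Stab1 were not analysed here. Of the 34, Cd34 and Sele were below the minimum mean of 10 normalized counts, which left 32 tested members among 11230 tested genes. The cultures were neonatal rat ventricular myocytes, freshly prepared from the ventricles of Sprague Dawley pups at postnatal day 1 to 3, a preparation that also holds non-muscle cells of the heart. On the day of isolation 3 cultures received the adenovirus Ad-GFP and 3 received Ad-Tbx18-IRES-GFP, which carries Tbx18 and, behind an internal ribosome entry site (IRES), GFP. Tbx18 is a T-box factor that acts in the embryo where the sinus node forms. All cultures thus carried an adenovirus and GFP, and RNA was taken on day 4 after gene transfer. The labels of the libraries mark the cultures of both groups as unpaced controls. The change of serum in the medium, given with the processing below, was the same in both groups. The study asked what Tbx18 does to the transcriptome of ventricular myocytes. The vector promoter, the species of the Tbx18 insert and the origin of each replicate are details not given in the sources used here. Replicates may thus come from 1 isolation, and the p-values measure only how these libraries vary, which may be technical variation.

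The libraries held 17074483 to 19800300 gene-assigned reads, recovered from the deposited normalized counts. Tbx18 was read at 292 ± 22.1 normalized counts in GFP and 6059 ± 157 in Tbx18 (SD, n = 3 per group), so each library matched its label. Values below are normalized counts, given for replicates 1, 2 and 3 in that order or as mean ± SD (n = 3), and each fold is a ratio of group means. A gene is said to have risen or fallen where the limma adjusted p over all 11230 genes was under 0.05. Such calls were made for 46.0% of all genes tested, 22.5% higher and 23.5% lower. With libraries scaled to equal recovered reads, the all-gene median log2 fold change moved from 0.01 to 0.27 and the calls from 2525 higher and 2639 lower to 4770 and 1351.

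Vascular endothelial growth factors act on the receptor tyrosine kinases encoded by Flt1, Kdr and Flt4, the last of them the main receptor for growth of lymphatic vessels. Angiopoietins act on the receptor encoded by Tek, with Tie1 as its partner, and set the stability of the vessel wall. Cell contacts are held by the adhesion proteins encoded by Cdh5, Pecam1 and Esam, and ETS and SOX transcription factors such as Erg, Fli1, Sox17 and Sox18 maintain the identity of the cells. Several of the genes are not restricted to endothelium: Prox1 is also made by heart muscle cells, Angpt1 by mural cells and fibroblasts, Vcam1 and Icam1 by many stimulated cells, and Lyve1 and Fli1 by blood-derived cells.

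Endothelial transcripts were read in all the cultures, as were those of the other cell types listed further on, so their presence does not set the culture apart. All 10 of 10 defining endothelial markers (Cldn5 and 9 of the members: Pecam1, Cdh5, Kdr, Flt1, Tek, Tie1, Emcn, Egfl7 and Esam) were read in every library, none was at 0, 5 rose and 1 fell. Their summed level was 2197 to 3332 in GFP and 3213 to 3285 in Tbx18. The 1 that fell, Kdr, was the largest part of that sum, at 841 to 1078 in GFP and 617 to 679 in Tbx18. The sum thus does not show how the other markers moved. The 9 of 10 cardiomyocyte markers in the table summed to 894354 to 994271 in GFP and 451910 to 471427 in Tbx18, with none at 0. In bulk RNA, more cells of a type and more RNA per cell cannot be told apart, and this holds for every difference below.

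More of the endothelial genes rose than fell: 17 of the 32 tested members rose, 4 fell and 11 were not called. A rise of at least 1 on the log2 scale was called for 6 members (Angpt1, Erg, Sox18, Tal1, Tek and Vcam1), where 8.04% of all genes tested had one. The 22.5% of all genes tested that rose and the 23.5% that fell are the background for these counts. The median log2 fold change of the 32 was 0.57 against 0.0051 over all genes. The Tbx18 libraries all lay above the GFP libraries for 19 members and all below for 4, where 28.6% of all genes tested lay apart in each direction and 57.2% in either. The members moved unequally: log2 fold changes ran from -1.71 for Prox1 to 2.96 for Angpt1. Quantile normalization left 11 members higher and 5 lower, with a median of 0.23, while 2527 of all genes were higher and 2577 lower.

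**Figure D1:**
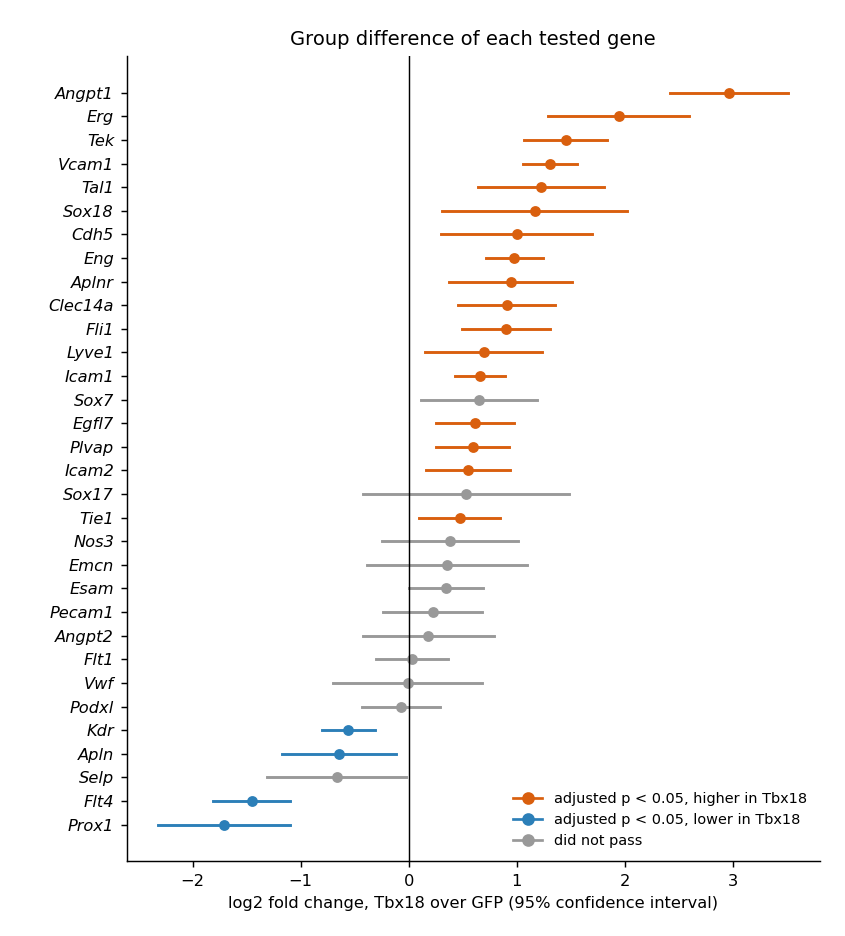
Log2 fold change of each of the 32 tested genes, Tbx18 over GFP, with 95% confidence intervals from limma (x axis), genes ordered by size (y axis); colour marks the call at an adjusted p under 0.05. Angpt1, Erg, Tek and Vcam1 stand at the upper end and Prox1 and Flt4 at the lower end.

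None of the 3 VEGF receptors rose: Kdr and Flt4 fell, and Flt1 was not called. Kdr, the main signalling receptor for VEGF-A, had 1078, 841 and 999 normalized counts in GFP and 617, 676 and 679 in Tbx18. The groups did not overlap, and Kdr fell 1.48-fold (limma adjusted p = 0.00257, log2 fold change -0.56, SE 0.11); scaled to equal recovered reads its log2 fold change was -0.29, against 0.27 for the median gene, and it was not called (adjusted p over its alternatives 7.61e-05 to 0.0650). Flt4 stood at 466, 349 and 392 in GFP and 123, 147 and 170.3 in Tbx18. It fell 2.74-fold without overlap (limma adjusted p = 0.000104, log2 fold change -1.45, SE 0.16), the largest fall of the set after Prox1. Flt1, a receptor that also acts as a decoy for VEGF-A, had 540.4, 357 and 413 in GFP and 447, 411 and 461 in Tbx18. The Flt1 groups overlapped and it was not called, with a 95% interval of -0.31 to 0.36 on the log2 scale.

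The ligands of these receptors moved in both directions. Vegfa, which encodes the main vascular growth factor, was at 36465, 44047 and 40115 in GFP and 10052, 12488 and 13797 in Tbx18. All Tbx18 values lay far below the GFP values, a fall of 3.32-fold (limma adjusted p = 1.38e-05, log2 fold change -1.74, SE 0.13). Vegfc, a ligand of the Flt4 receptor, instead rose 1.79-fold from 245 ± 7.51 to 438 ± 27.4 (limma adjusted p = 0.000239). The ligand genes Vegfb, Pgf and Vegfd fell 1.53-fold, 2.03-fold and 1.62-fold (limma adjusted p = 0.000408, 0.000681 and 0.0272). Among the co-receptors, Nrp2, a partner of Flt4 in lymphatic growth, rose 3.99-fold from 261 ± 55.3 to 1042 ± 224. Nrp1 fell 1.33-fold, with a limma adjusted p of 0.0417, near the threshold. Pdgfb, through which endothelial cells recruit mural cells, was at 94.7, 55.6 and 97.8 in GFP and 229, 228 and 229 in Tbx18, and it rose 2.77-fold. In the whole list of VEGF, angiopoietin and apelin partners, 7 of 16 tested genes rose and 7 fell, with a median log2 fold change of -0.10. The 7 falls became 3 with equal recovered reads, 4 without Tbx18 replicate 1 and 3 without Tbx18 replicate 2.

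**Figure D2:**
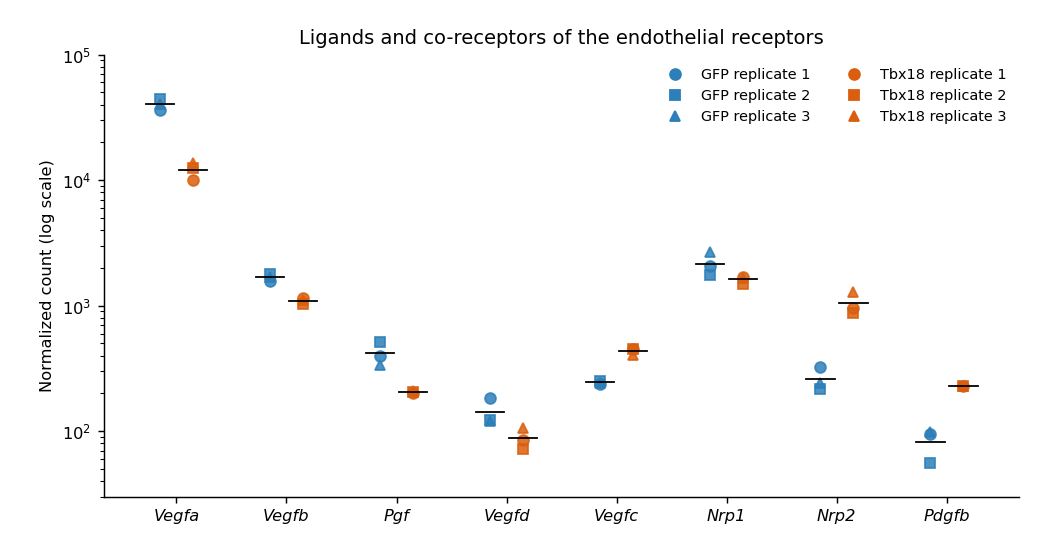
Normalized counts on a log axis (y) of ligand and co-receptor genes (x) in each library, GFP in blue and Tbx18 in orange, with a black line at each group mean. Vegfa, Vegfb, Pgf, Vegfd and Nrp1 lie lower in Tbx18 and Vegfc, Nrp2 and Pdgfb higher, with no overlap of the groups for any of the 8 genes.

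In the angiopoietin system, the ligand Angpt1 and the receptor Tek rose together. Angpt1, the agonist that stabilizes vessels, was at 24.5, 13.6 and 17.3 in GFP and 141, 135 and 166 in Tbx18. Its groups were far apart, a rise of 7.99-fold (limma adjusted p = 2.36e-05, log2 fold change 2.96, SE 0.24), the largest of the set; the GFP values rest on 23, 11 and 15 reads. Tek went from 194, 117 and 149.6 to 406, 415 and 419, a rise of 2.69-fold (limma adjusted p = 0.000155, log2 fold change 1.45, SE 0.17). The Tbx18 libraries were nearly equal for Tek, whereas the GFP libraries spread 1.65-fold. Angpt2, which endothelial cells release and which often opposes Angpt1, had 232, 101 and 212 in GFP and 184, 194 and 205 in Tbx18. GFP replicate 2 was the low library there, the groups overlapped, and Angpt2 was not called (95% interval -0.43 to 0.79).

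Tie1 was at 222, 152 and 223 in GFP and 281, 251 and 287 in Tbx18. It rose 1.37-fold without overlap (limma adjusted p = 0.0415, log2 fold change 0.47, SE 0.17), but lost the call in 7 of 21 alternatives. It was not called without GFP replicate 2, where the log2 fold change was 0.29, with any single Tbx18 library left out, after quantile normalization, with no filter or with no intensity trend (adjusted p over its alternatives 0.00744 to 0.126).

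Of the apelin pair, the receptor rose, while the ligand fell with a p near the threshold. Aplnr, the receptor, was at 80.8, 42.0 and 81.7 in GFP and 137, 116 and 127 in Tbx18, a rise of 1.86-fold (limma adjusted p = 0.0134, log2 fold change 0.94, SE 0.26) that was lost after quantile normalization (adjusted p over its alternatives 0.00310 to 0.0521). Apln, the ligand made by sprouting endothelium and by muscle, had 309.6, 242 and 321 in GFP and 136, 168 and 273 in Tbx18. Tbx18 replicate 3 lay among the GFP values. The fall of 1.51-fold (limma adjusted p = 0.0474, log2 fold change -0.65, SE 0.24) was lost in 12 of 21 alternatives (adjusted p 0.00576 to 0.208). These included leaving out GFP replicate 1, GFP replicate 3, Tbx18 replicate 1, where the log2 fold change was -0.43, or Tbx18 replicate 2.

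Of 12 tested junction and surface genes, 6 rose, none fell and 6 did not pass; the calls of Plvap, Icam2 and Cdh5 were lost in alternatives given below. Eng, a co-receptor for BMP9 and TGF-beta that mural and stromal cells also make, stood at 2035, 1465 and 1868 in GFP and 3638, 3388 and 3451 in Tbx18 and rose 1.95-fold (limma adjusted p = 0.000166, log2 fold change 0.98, SE 0.12). Clec14a, a lectin-like surface protein of endothelium, went from 186, 104 and 127 to 269.7, 246 and 247 and rose 1.83-fold (limma adjusted p = 0.00475). Egfl7, a secreted factor of endothelial cells, went from 229 ± 47.9 to 345 ± 15.2, and Plvap, which forms the diaphragms of fenestrae and caveolae, from 81.1 ± 6.27 to 123 ± 2.26. Their log2 fold changes were 0.61 and 0.59, with limma adjusted p = 0.0115 and 0.0101; Plvap was not called after quantile normalization (adjusted p over its alternatives 0.00172 to 0.11). Icam2, a constitutive adhesion molecule, rose from 64.7 ± 5.85 to 95.2 ± 8.46, but lost the call with GFP replicate 2 or any single Tbx18 library left out and after quantile normalization (adjusted p over its alternatives 0.0043 to 0.349).

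The 2 classical junction genes differed. Cdh5, VE-cadherin, was at 219, 82.7 and 189.9 in GFP and 286, 276 and 353 in Tbx18. GFP replicate 2 was 2.47-fold under the mean of the other GFP libraries. Cdh5 rose 1.86-fold (limma adjusted p = 0.0251, log2 fold change 1.00, SE 0.31), with a log2 fold change of 0.57 without GFP replicate 2, and it was not called without Tbx18 replicate 3 or with no intensity trend (adjusted p over its alternatives 0.00375 to 0.0968). Pecam1, CD31, was at 408, 217 and 334 in GFP and 351, 391 and 342 in Tbx18. Its Tbx18 values lay inside the range of GFP, and it was not called (95% interval -0.23 to 0.68).

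The other uncalled members of this group had wide GFP ranges. Vwf, von Willebrand factor, was at 379, 139.6 and 292 in GFP and 213, 281 and 254 in Tbx18. Nos3, endothelial nitric oxide synthase, had 128, 60.5 and 130.02 in GFP and 119, 152 and 125 in Tbx18. For both genes GFP replicate 2 was low; the Tbx18 libraries of Vwf fell between the GFP extremes, while for Nos3 Tbx18 replicate 2 lay above every GFP library and the other two lay between the extremes. Emcn, endomucin, was at 114, 53.1 and 79.4 and 123, 129 and 63.2, with a low library in each group. Esam was at 282, 190.2 and 251 and 315, 305 and 289, apart but not called (limma adjusted p = 0.0901; 0.0129 to 0.248 over its alternatives, and called without GFP replicate 1, with equal recovered reads and with upper-quartile scaling). Podxl, a sialomucin shared with mesothelium, was at 540.3 ± 129 and 504 ± 30.0. The remaining gene, Cd34, had at most 3.07 normalized counts in any library and was not tested.

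**Figure D3:**
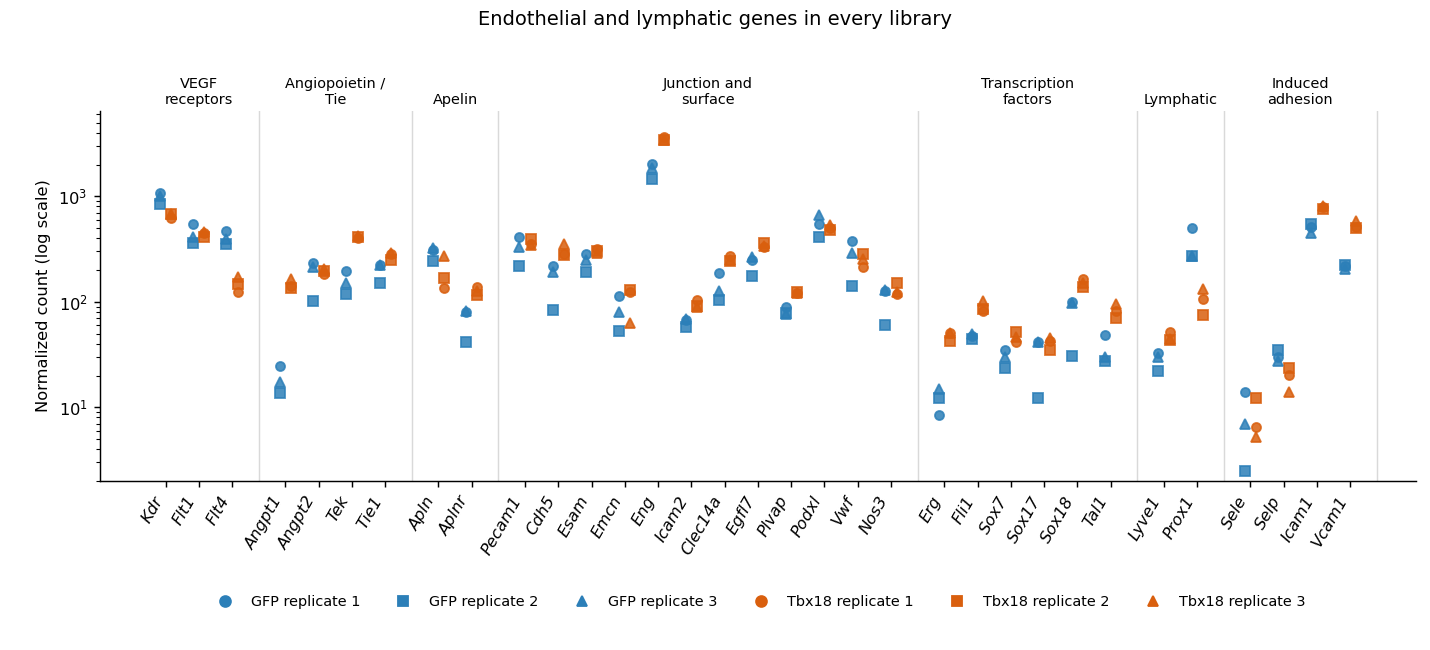
Normalized counts on a log axis (y) of 33 of the 34 genes (x, grouped by role; Cd34 is left out, being near 0) in each library, GFP in blue and Tbx18 in orange, with the marker shape giving the replicate. GFP replicate 2 (blue squares) is the lowest GFP library for most genes outside the adhesion group, and the Tbx18 libraries lie closer together.

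Transcription factors of endothelium rose or did not pass, and none fell. Erg, an ETS factor, was at 8.51, 12.3 and 14.96 in GFP and 50.6, 42.0 and 50.9 in Tbx18. All Tbx18 libraries lay above the GFP libraries, and Erg rose 4.01-fold (limma adjusted p = 0.000550, log2 fold change 1.94, SE 0.29) on 8, 10 and 13 reads in GFP and 55, 41 and 58 in Tbx18. The related ETS gene Fli1 rose 1.90-fold, from 47.9, 44.5 and 49.5 to 81.9, 86.1 and 101 (limma adjusted p = 0.0029, log2 fold change 0.90, SE 0.18). Tal1, a helix-loop-helix factor of blood and endothelial precursors, rose 2.32-fold, from 48.9, 27.2 and 29.9 to 81.0, 69.7 and 94.8 (limma adjusted p = 0.00388, log2 fold change 1.22, SE 0.26).

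The SOX genes were less uniform. Sox18 was at 98.9, 30.9 and 96.7 in GFP and 164, 139 and 151 in Tbx18, so that GFP replicate 2 was 3.17-fold under the other GFP libraries. Sox18 rose 2.01-fold (limma adjusted p = 0.0312, log2 fold change 1.17, SE 0.38); the log2 fold change was 0.62 without GFP replicate 2, and the call was lost with any single Tbx18 library left out, after quantile normalization and with no intensity trend (adjusted p over its alternatives 0.00700 to 0.0874). Sox17, a factor of arterial endothelium, had 41.5, 12.3 and 41.4 in GFP and 42.3, 34.8 and 45.6 in Tbx18, overlapped and was not called. Sox7 was at 35.1, 23.5 and 29.9 and 41.4, 51.2 and 46.5. Its groups were apart and its adjusted p of 0.0505 was just over the threshold (0.0126 to 0.619 over its alternatives; called in 6 of 20, among the leave-out fits only without GFP replicate 1).

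Promoter windows were read for every member that could be matched, whatever its call, to show the sequence around the starts. RefSeq's GRCr8 table gave windows for 19 of the 34 genes, from 250 bases before to 50 after the annotated start. Both strands were searched for a T-box half-site (AGGTGT), ETS sites (CCGGAAG and CAGGAAGT), a SOX core (ACAAT) and kappa-B sites of the NF-kappa-B factors (GGGNNTTCC, and a form 1 base longer that ends in TTTCC); the 2 kappa-B patterns can overlap. Of all 33469 promoter windows, 13.6% held the T-box half-site, 8.75% and 3.05% the ETS sites, 33.7% the SOX core and 5.92% and 1.53% the kappa-B sites. Among the 19 genes, the T-box half-site was found in Nos3, CAGGAAGT in Egfl7, GGGNNTTCC in Tie1 and Vcam1, and ACAAT in 6 genes (Egfl7, Emcn, Erg, Lyve1, Nos3 and Podxl). The 2 other patterns matched none of them, which says only that these letters are not in these windows. Shown 5′ to 3′ on the strand of the gene are Erg, Vcam1, Tie1 and Egfl7 (the first of its 2 starts), which rose, and Flt4, which fell, with matches in capitals (ACAAT reads ATTGT where it lies on the opposite strand). Emcn, Nos3 and Podxl hold matches and were not called. Eng, Tal1, Clec14a, Icam1 and Plvap rose, and their windows hold no match. The windows shown are only some of those read, so matches and calls cannot be related from them. A match is not evidence of binding.
Erg (chr11:48251517-48251816, minus strand): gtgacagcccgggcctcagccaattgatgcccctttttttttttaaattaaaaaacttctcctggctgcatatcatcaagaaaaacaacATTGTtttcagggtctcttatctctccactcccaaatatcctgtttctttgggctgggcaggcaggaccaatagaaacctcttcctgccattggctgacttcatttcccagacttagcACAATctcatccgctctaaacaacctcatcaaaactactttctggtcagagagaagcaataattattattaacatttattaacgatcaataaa
Vcam1 (chr2:206742734-206743033, minus strand): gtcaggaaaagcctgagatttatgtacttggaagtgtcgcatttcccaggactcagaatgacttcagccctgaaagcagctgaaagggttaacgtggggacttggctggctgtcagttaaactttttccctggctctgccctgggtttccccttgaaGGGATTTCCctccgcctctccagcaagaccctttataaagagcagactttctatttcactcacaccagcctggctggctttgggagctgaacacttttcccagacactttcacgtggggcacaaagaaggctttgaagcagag
Tie1 (chr5:137304932-137305231, minus strand): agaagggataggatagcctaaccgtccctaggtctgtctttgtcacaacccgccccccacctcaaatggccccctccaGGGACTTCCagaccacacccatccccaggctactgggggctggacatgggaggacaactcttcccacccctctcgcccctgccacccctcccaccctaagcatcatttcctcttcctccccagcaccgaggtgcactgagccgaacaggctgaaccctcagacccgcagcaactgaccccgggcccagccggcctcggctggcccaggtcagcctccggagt
Egfl7 (chr3:29805381-29805680, plus strand): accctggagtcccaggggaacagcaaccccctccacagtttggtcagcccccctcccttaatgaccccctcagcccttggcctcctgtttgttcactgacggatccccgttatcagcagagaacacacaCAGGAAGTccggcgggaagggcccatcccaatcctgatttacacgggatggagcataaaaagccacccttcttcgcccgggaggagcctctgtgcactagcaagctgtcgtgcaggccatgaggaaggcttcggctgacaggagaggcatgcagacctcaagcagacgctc
Flt4 (chr10:34414584-34414883, plus strand): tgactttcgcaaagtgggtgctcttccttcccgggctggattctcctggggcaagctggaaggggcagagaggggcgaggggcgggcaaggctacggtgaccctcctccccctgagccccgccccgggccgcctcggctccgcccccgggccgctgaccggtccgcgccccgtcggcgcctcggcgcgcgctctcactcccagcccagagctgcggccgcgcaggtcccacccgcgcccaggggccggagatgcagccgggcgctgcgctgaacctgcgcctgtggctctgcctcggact

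The genes best known from lymphatic endothelium split. Prox1, the homeobox factor that sets lymphatic identity and that heart muscle cells make as well, was at 504, 274 and 273 in GFP and 106, 74.8 and 133 in Tbx18. It fell 3.35-fold (limma adjusted p = 0.000789, log2 fold change -1.71, SE 0.27), with GFP replicate 1 high and no overlap. In the same libraries 7 of 9 tested cardiomyocyte markers fell, with a median log2 fold change of -0.96; their part in the fall of Prox1 was not tested. Lyve1, a hyaluronan receptor of lymphatic endothelium and of some macrophages, went from 33.0, 22.2 and 29.9 to 51.5, 43.0 and 43.9. It rose 1.63-fold (limma adjusted p = 0.0392, log2 fold change 0.70, SE 0.24), and the call was lost with GFP replicate 2, GFP replicate 3 or any single Tbx18 library left out, after quantile normalization, with no filter and by DESeq2 (adjusted p over its alternatives 0.0103 to 0.564). Among 7 tested genes of a further lymphatic list 5 rose, with Maf, Foxc1 and Nfatc1, all transcription factors, highest at 3.40-fold, 2.88-fold and 2.36-fold. Pdpn, podoplanin, which stromal and mesothelial cells also make, rose 1.32-fold from 1119.7 ± 49.6 to 1481 ± 42.1. The 1 fall in that list, Reln, lost its call with GFP replicate 1, GFP replicate 3 or any single Tbx18 library left out, under upper-quartile scaling, under equal recovered reads and with no intensity trend. Ccl21, a chemokine typical of lymphatic endothelium, was at 0 in all GFP libraries and at most 0.878 in Tbx18.

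The adhesion molecules that inflamed endothelium displays did not move as a set. Vcam1, a ligand for leukocyte integrins, was at 218, 221 and 204 in GFP and 513, 503 and 588 in Tbx18. It rose 2.50-fold with a narrow spread in both groups (limma adjusted p = 2.77e-05, log2 fold change 1.31, SE 0.11). In the promoter window printed above, Vcam1 has the match GGGATTTCC, which begins 93 bases before the start. Icam1, a ligand of another leukocyte integrin family, went from 506, 551 and 449 to 796, 762 and 816, a rise of 1.58-fold (limma adjusted p = 0.000696, log2 fold change 0.66, SE 0.10). The selectins, which are largely confined to endothelium and platelets, did not pass. Selp was at 29.8, 34.6 and 27.6 in GFP and 20.3, 23.6 and 14.04 in Tbx18, lower in every Tbx18 library but not called (limma adjusted p = 0.0833; 0.00759 to 0.253 over its alternatives, and called after quantile normalization and with no intensity trend). Sele had 13.8, 2.47 and 6.90 and 6.44, 12.3 and 5.27 and was too low to be tested. Of 12 tested NF-kappa-B genes and targets, 4 rose and 1 fell. Among them Il1r1, an interleukin-1 receptor, rose 2.36-fold, Cxcl10, a chemokine, 2.42-fold, and Ptgs2, cyclooxygenase 2, fell 3.06-fold. The 4 rises became 8 with equal recovered reads and 2 with any single Tbx18 library left out.

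The GFP libraries differed among themselves for most of these genes. GFP replicate 2 was the lowest of the 3 GFP libraries for 26 of 32 tested members, where this was so for 31.5% of all genes tested. GFP replicate 1 was the highest for 20, against 33.8% of all genes. The median deviation from the GFP mean over the members was 0.25, -0.32 and 0.08 on the log2 scale for replicates 1, 2 and 3, and -0.0085, 0.01 and 0.0058 over all genes. The highest GFP library was at least 1.5 times the lowest for 18 members (21.8% of all genes) and the highest Tbx18 library for 4 (8.12% of all genes). The median SD of the members was 0.34 within GFP and 0.12 within Tbx18, against 0.17 and 0.10 over all genes.

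Among the 32 tested members, the low values of GFP replicate 2 were deepest for Sox17, Sox18, Cdh5 and Vwf, at 3.36-fold, 3.17-fold, 2.47-fold and 2.404-fold under the mean of GFP replicates 1 and 3. Those of Sox17 and Sox18 rest on 10 and 25 reads in replicate 2. The low values were shallower for Kdr and Flt4, each 1.23-fold under. The exceptions were Erg, lowest in replicate 1, and Plvap, Prox1, Selp, Icam1 and Vcam1, lowest in replicate 3. All 10 defining endothelial markers were lowest in replicate 2, Cldn5 included, at 27.7, 12.3 and 16.1 in GFP and 55.2, 46.1 and 51.8 in Tbx18. Leukocyte markers ran the other way: all 16 of 16, Ptprc, Cd68, Csf1r and C1qa among them, were highest in GFP replicate 2, where 36.1% of all genes were. Their sum was 1665, 3101 and 1975 in GFP and 2162, 2675 and 2962 in Tbx18. Their part in the endothelial values was not tested.

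**Figure D4:**
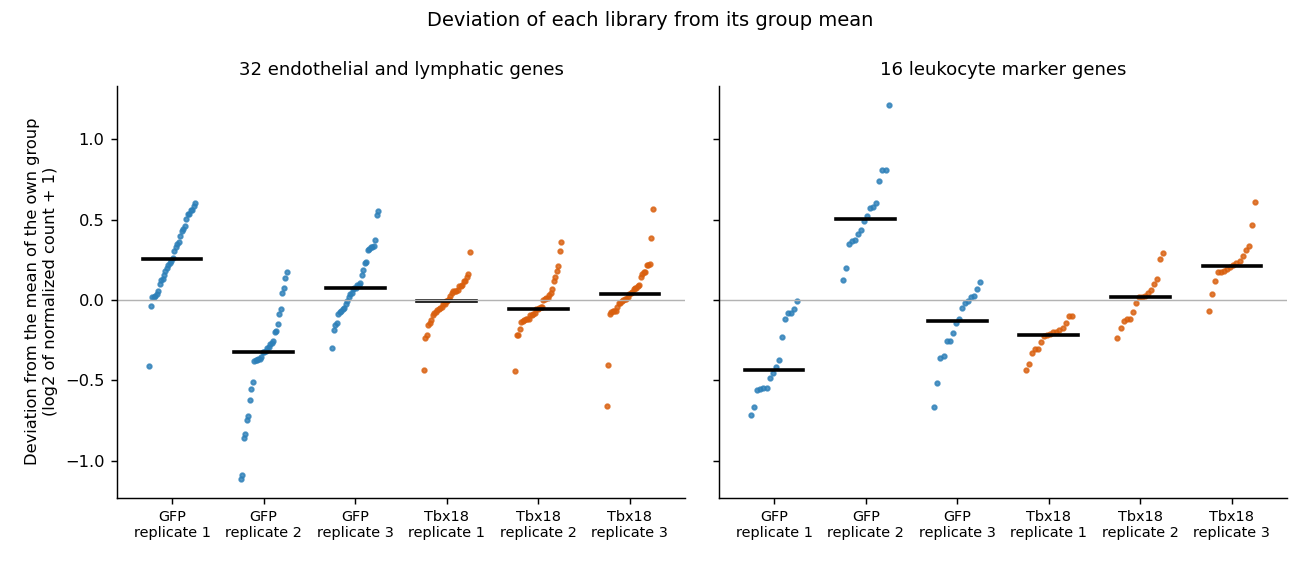
Deviation of each library from its group mean (y, as log2 of normalized counts plus 1) for the 32 tested genes (left) and 16 leukocyte markers (right), 1 point per gene, sorted within each library (x), with a black line at the median. GFP replicate 2 has a median of -0.32 on the left and 0.51 on the right.

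Without GFP replicate 2, 14 members rose and 4 fell, with a median log2 fold change of 0.45. In that fit 2363 of all genes were higher and 2382 lower. Set against only GFP replicates 1 and 3, the Tbx18 mean of Pecam1 was 0.974 times the GFP mean, that of Vwf 0.742 times and that of Sox17 0.988 times. Those of Tek, Erg and Angpt1 were 2.41, 4.08 and 7.06 times.

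Ratios of genes within a library are free of the scaling between libraries and of any change shared by both genes. Of 14 pairs computed, those given here were chosen after their values were seen, and 3 against 3 libraries cannot give an exact permutation p under 0.1, so no test is given. The ratio of Tek to Kdr was 0.18, 0.14 and 0.15 in GFP and 0.658, 0.614 and 0.616 in Tbx18, 4.03-fold higher. Flt4 to Kdr was 0.432, 0.416 and 0.393 in GFP and 0.200, 0.217 and 0.251 in Tbx18, 1.86-fold lower. Within each group these ratios were close, GFP replicate 2 included, and between groups they did not overlap. Angpt1 to Angpt2 went from 0.106, 0.134 and 0.0815 to 0.765, 0.698 and 0.811, and Flt4 to Lyve1 from 14.1, 15.7 and 13.1 to 2.39, 3.40 and 3.88. The receptors and the lymphatic genes thus changed unequally among themselves.

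**Figure D5:**
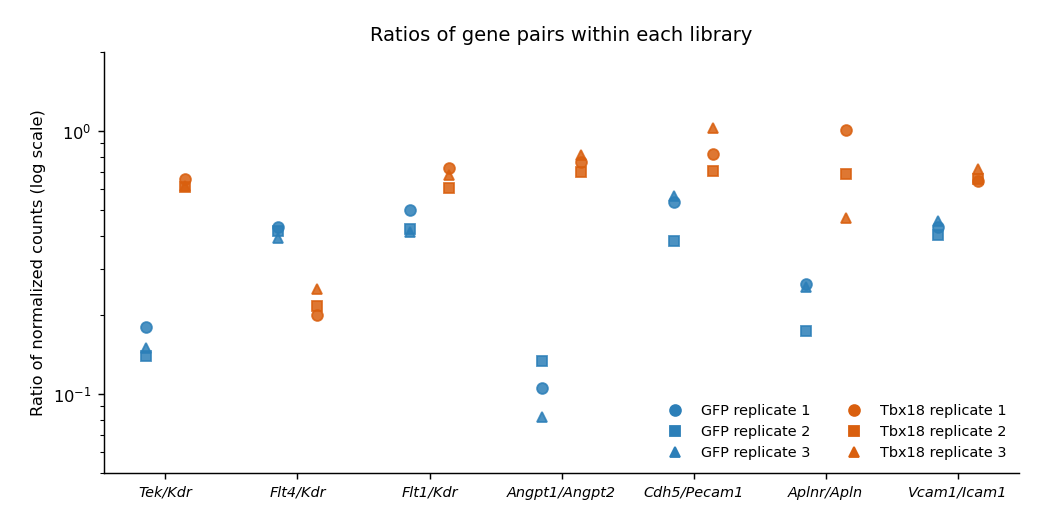
Ratio of normalized counts on a log axis (y) for 7 gene pairs (x) in each library, GFP in blue and Tbx18 in orange. The groups do not overlap for any of the 7 pairs, with Tek/Kdr and Angpt1/Angpt2 higher and Flt4/Kdr lower in Tbx18.

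Pecam1 of the same library served as a further reference. The GFP spread of 21 of the other 31 tested members became smaller on the log2 scale when each was divided by Pecam1 of its library, against 11.4% of 11184 tested genes above 0 in every library. Pecam1 itself had a wide GFP spread (SD 0.46), so the division widened that of most genes. The median GFP SD went from 0.32 to 0.27 for the members and from 0.17 to 0.51 for the 11184 genes. Pecam1 was low in GFP replicate 2 like most members, so this is not separate from the low values given above. Relative to Pecam1, 14 members lay higher in all Tbx18 libraries, 4 lay lower (Kdr, Flt4, Prox1 and Selp) and 13 overlapped. After the same division, 9.73% of those 11184 genes lay higher and 22.1% lower. The division widened the GFP spread of most genes and narrowed that of most members. These shares are thus not a like comparison with the counts of members. Tek relative to Pecam1 was 0.487 ± 0.0472 in GFP and 1.15 ± 0.0819 in Tbx18. Flt4 relative to Pecam1 was 1.31 ± 0.260 and 0.408 ± 0.0784.

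Other genes of the vessel wall, outside the 38, moved in both directions as well. Of 36 tested further endothelial genes, 14 rose and 7 fell, with a median log2 fold change of 0.53. Tm4sf1, a surface protein of endothelial and mesenchymal cells, rose 3.02-fold. Cldn5, the tight junction protein of endothelium, rose 2.73-fold, and Gata2, a transcription factor of blood and endothelium, 2.42-fold. Among the 7 falls, Palmd fell 2.09-fold, Cd36 1.96-fold and S1pr1 1.93-fold. The sum of the list was 24907 to 28285 in GFP and 24350 to 25086 in Tbx18. Of 17 tested arterial, venous and Notch genes, 9 rose and 2 fell, or 5 rose without Tbx18 replicate 3 and 1 fell with equal recovered reads. Jag1, a Notch ligand, rose 3.50-fold, the venous and atrial nuclear receptor gene Nr2f2 2.55-fold and Notch1 2.19-fold. Notch4, the Notch receptor most restricted to endothelium, fell 1.81-fold, from 622, 496 and 587 to 284, 316 and 345.

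Markers of other cells in the cultures moved in the same libraries, and their part in the differences above was not tested. Of 10 fibroblast markers 9 rose (median log2 fold change 1.19), led by Tcf21, Col3a1 and Postn, and their sum was 240683 to 280395 in GFP and 516443 to 601042 in Tbx18. Of 10 mural markers 6 rose and 1 fell, with Pdgfrb and Mylk up and Des, also a heart muscle gene, down; their sum was 195616 to 208101 in GFP and 165663 to 172982 in Tbx18. The direction of that sum rested on Des: without it the sum was 75549 to 111917 in GFP and 120590 to 132881 in Tbx18. Of 7 tested epicardial and mesothelial markers 6 rose, Krt8, Aldh1a2 and Krt18 most, and Wt1 was not called (limma adjusted p = 0.193). The sum of the list was 766 to 1023 in GFP and 3859.7 to 4575 in Tbx18. Krt8 alone held 188 to 289 of it in GFP and 2268 to 2950 in Tbx18, so the size of the rise in the sum rested largely on Krt8. Among cardiomyocyte markers Myh7, Tnnt2 and Mybpc3 fell most. Of 16 leukocyte markers 3 rose, Mrc1, Csf1r and Cd68, and 7 rose without GFP replicate 2, 1 without GFP replicate 3 or Tbx18 replicate 2, 0 without Tbx18 replicate 3, 6 under equal recovered reads and 1 under quantile normalization. Platelet and red cell markers were sparse (sum 91.5 to 248 in GFP and 197 to 334 in Tbx18), with Ppbp and Gata1 at 0 in every library and neither of 2 tested genes called.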

How the data were processed

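RNA of 6 cultures was analysed, 3 per group. Per the labels' protocols, a stranded mRNA kit turned 100 ng of total RNA per library into paired reads of 101 bp, and medium held 10% serum at first and 2% from day 3. The submitters' processing notes list DESeq2 1.10.1, HTSeq, STAR 2.4.0g1 and bcl2fastq 2.17.1.14, with no role for any. Genome build, annotation and strand setting: not given in the sources used here, which leaves overlapping and antisense genes uncertain. The deposited values are signal: the file's name calls them DESeq2-normalized counts, in which the authors divided gene read counts by 1 size factor per library. All values (100%) were whole multiples of 1 step per library within a tolerance of 0.01, which gave the reads.

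Groups were compared with limma 3.58.1 in R 4.3.3, two-sided, with the trend option, on log2-transformed normalized counts with a pseudocount of 1, for genes with a mean of at least 10. P-values were Benjamini-Hochberg adjusted over all genes tested. The fold changes of low genes are understated on this scale. Replicates of a group differed by more than sampling noise (chi-square per degree of freedom 4.47 to 30.4). The labels name no batch. Members and lists were chosen with earlier results of these data known. All members were named, with the 3 called genes of largest change from each other list and Vegfa, Vegfc, Cldn5 and Pdpn. Vegfb, Vegfd, Pgf, Nrp1, Pdgfb, Notch4, Reln, Ccl21, Palmd, Cd36 and S1pr1 were chosen after their values were seen. So were the marker genes named for the low replicate, the mural sum without Des and all ratios. Alternatives covered scaling, pseudocount, filter, limma settings, the count tools DESeq2 1.42.0 and edgeR 4.0.16 on the recovered reads, the replicate number as block and leaving out each library. The limma step was tested on simulated data in which few genes changed and both groups had the same dispersion. These data differ in both respects, so that test does not give the error rate here.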

Additional observations from a re-analysis of the deposited data

How the results depend on the processing

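Of the 21 called members, 12 kept their call and direction in every one of the 21 alternatives that tested them: Prox1, Flt4, Egfl7, Icam1, Fli1, Clec14a, Eng, Tal1, Vcam1, Tek, Erg and Angpt1. No call reversed, and 14 sign changes concerned differences, over members and other named genes, that passed under neither setting. The 17 higher members became 11 after quantile normalization, where 2527 of all genes were higher. The 4 lower members became 2 with equal recovered reads, where all genes gave 4770 higher and 1351 lower. With equal recovered reads the 18 lower genes of the other pathway lists became 10. The cause of these moves was not tested. Under the remaining alternatives these counts stayed within 1.5 times. Leaving out 1 library gave 12 to 19 higher and 3 to 4 lower members, and 1891 to 2900 and 2060 to 2968 of all genes. GFP replicate 2 was lowest for 26 members as deposited, 28 with TMM scaling and 28 with equal recovered reads. Same-numbered libraries deviated from their group means with correlations of -0.0047, 0.15 and 0.0165, the 0.15 of replicates 2 being the largest of any GFP and Tbx18 pair. GFP replicates 2 and 3 correlated best with their own number, but GFP replicate 1 with Tbx18 replicate 3 (0.11). The labels state no pairing, and the numbers were not taken as pairs. With a replicate block 16 members were higher and 4 lower, Lyve1 losing its call (log2 fold change 0.70), and 2527 and 2628 of all genes. Erg, Angpt1, Sele and Cd34 rest on few reads in GFP or in both groups, which limits what their values show. Sox17, Cldn5, Lyve1 and Sox7 were also low in GFP replicate 2, with 10, 10, 18 and 19 reads. Groups of 3 libraries were not tested for outlying samples.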
